A study of Mus musculus with 7 samples.

Results

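The 43 genes described here encode the parts of the lysosome and of the proton pump that acidifies it. They were taken by name from the 23337 genes measured in mouse bone marrow-derived macrophages, as a list chosen with earlier results of these data known. All 43 were present and passed the filter on low values. By role they were 14 subunits and partners of the vacuolar ATPase (5 of its membrane sector V0, and 9 of its catalytic sector V1 with an accessory subunit), 9 proteases (8 cathepsins and legumain), 11 hydrolases and activator proteins, 6 membrane proteins, and 3 transcription factors of the MiT family.

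Lysosomes break down proteins, lipids and sugars that a cell has engulfed or discarded from its own contents. Their hydrolases work in acid, which the vacuolar ATPase provides by moving protons across the membrane at the cost of ATP. The MiT factors Tfeb, Tfe3 and Mitf bind a short DNA element near many lysosomal genes and raise their transcription. Macrophages are rich in lysosomes, and the cathepsins in them also trim antigens for presentation.

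RNA sequencing had been done on macrophages grown from the marrow of male mice for 7 days in M-CSF at 25 ng/ml. The 7 libraries were Tgm2 knockout cells given LPS at 10 ng/ml for 6 hours (KO LPS, n = 2), wild-type cells given the same LPS (WT LPS, n = 2), untreated knockout cells (KO M0, n = 1) and untreated wild-type cells (WT M0, n = 2). The product of Tgm2, transglutaminase 2, forms bonds between protein side chains, and LPS is the bacterial lipopolysaccharide that activates macrophages. The labels do not describe the deletion or its cell type, nor whether libraries of a group came from separate mice, so p-values measure only the spread between these libraries, which may be technical. Values are TPM, transcript abundances corrected for length and scaled to the same total in every library, which keep no record of sequencing depth.

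Tgm2 itself stood at 19.4 and 19.2 TPM in KO LPS, 233 and 199 TPM in WT LPS, 50.7 TPM in KO M0, and 433 and 368 TPM in WT M0, so it was low in every library labelled knockout. Xist, which is made from the inactive X chromosome of female cells, was at 47.2 and 55.4 TPM in the WT LPS libraries and at most 0.0053 TPM in the other 5, which goes against the male label of the WT LPS libraries. The 4 Y-linked genes looked at were expressed in all 7 libraries and lowest in WT LPS, with Ddx3y at 41.9 and 41.6 TPM in KO LPS, 20.3 and 23.5 TPM in WT LPS, 56.4 TPM in KO M0, and 32.2 and 50.04 TPM in WT M0, so the WT LPS libraries held both signals. The comparisons KO LPS vs WT LPS and WT LPS vs WT M0, and the difference between the LPS changes of the genotypes, all rest on these 2 libraries and have no value without them. What this mismatch contributes was not tested. Macrophage markers were high throughout, with Csf1r between 1982 and 3248 TPM and Adgre1 between 1111 and 1715 TPM. The summed level of the B cell, T and NK cell, erythroid, mast cell and dendritic cell marker lists was at most 2.11 TPM in any library.

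Promoter sequence was looked at because the MiT factors recognise the E-box CACGTG, alone or within the longer CLEAR element, and the related M-box TCATGTG. A promoter window of 300 bases, 250 before and 50 after an annotated start, was held for 36 of the 43 genes in RefSeq's table for GRCm38.p6. Both strands were searched, and the E-box reads the same on each. An E-box was present in 13 of these 36 genes (36.1%), against 12.3% of the 7947 tested genes with a window and 8.1% of all 27025 genes with one. The M-box, whose letters do not contain the E-box, was present in 6 of 36 (16.7%), against 2.8% of tested genes. The core of the CLEAR element, which contains the E-box, was present in 0 of 36, against 0.9% of tested genes. The stretches below are 100 bases each, upstream of a start on the strand of the gene, with the E-box in capitals. They show a cathepsin and a hydrolase that differed between the genotypes under LPS (Ctsl and Glb1), a cathepsin that was lower under LPS in both genotypes (Ctsd), and 3 genes with more than 1 E-box in the stretch (Lamp1, Mcoln1 and Atp6v0b).
Ctsl (chr13:64370671-64370770, minus strand): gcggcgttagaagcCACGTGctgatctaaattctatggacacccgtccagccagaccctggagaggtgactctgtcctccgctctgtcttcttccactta
Glb1 (chr9:114400978-114401077, plus strand): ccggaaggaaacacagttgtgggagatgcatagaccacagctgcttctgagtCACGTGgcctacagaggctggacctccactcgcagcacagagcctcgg
Ctsd (chr7:142387828-142387927, minus strand): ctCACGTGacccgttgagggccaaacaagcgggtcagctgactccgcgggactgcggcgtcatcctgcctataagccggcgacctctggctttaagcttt
Lamp1 (chr8:13159061-13159160, plus strand): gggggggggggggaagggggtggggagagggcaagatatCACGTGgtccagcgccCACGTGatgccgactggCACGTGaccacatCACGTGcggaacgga
Mcoln1 (chr8:3500419-3500518, plus strand): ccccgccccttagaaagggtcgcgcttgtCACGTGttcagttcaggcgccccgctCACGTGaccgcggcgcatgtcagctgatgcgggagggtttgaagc
Atp6v0b (chr4:117887330-117887429, minus strand): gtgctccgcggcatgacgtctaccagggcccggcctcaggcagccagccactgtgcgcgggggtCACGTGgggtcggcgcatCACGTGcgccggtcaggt
Lamp1 held 4 E-boxes within 100 bases, and Mcoln1 and Atp6v0b held 2 each. The Ctsl stretch lies 250 to 151 bases before a start that is inside the annotated span of the gene, and the other stretches end 1 base before their start. A match to these letters is a description and does not show binding.

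The 43 genes together held a smaller share of all transcripts after LPS. Of all TPM they made up 3.11% and 3.14% in the KO LPS libraries, 3.28% and 3.44% in the WT LPS libraries, 5.57% in KO M0, and 5.31% and 5.56% in WT M0. The 4 libraries given LPS were all below the 3 untreated ones, with no overlap. Under LPS both knockout libraries were also below both wild-type ones, by a smaller margin, and KO M0 was close to WT M0. In percentage points the cathepsins with legumain differed most, at 1.40% ± 0.040 of TPM in KO LPS (SD, n = 2) and 1.61% ± 0.0028 in WT LPS (SD, n = 2), against 2.70% in KO M0 (n = 1) and 2.65% ± 0.029 in WT M0 (SD, n = 2). The hydrolases and activators held 0.740% ± 0.0090 in KO LPS and 0.711% ± 0.035 in WT LPS, against 1.49% in KO M0 and 1.44% ± 0.092 in WT M0, which is the larger change as a ratio. The proton pump genes held 0.474% ± 0.0086 in KO LPS and 0.505% ± 0.028 in WT LPS, against 0.501% in KO M0 and 0.505% ± 0.0058 in WT M0. With libraries set to an equal median ratio, the summed pump level was higher in every LPS library, at 4923 and 5048 in KO LPS and 5458 and 5405 in WT LPS, against 4420 in KO M0 and 4837 and 4382 in WT M0. In this scaling the V1 and accessory sum was higher in every LPS library. The V0 sum overlapped, at 2411.5 and 2459.1 in KO LPS and 2654 and 2681.2 in WT LPS, against 2376.5 in KO M0 and 2715.9 and 2418.8 in WT M0. The V1 sum includes Atp6v1e1, at 685 and 760 TPM in KO LPS, 729 and 728 TPM in WT LPS, 304 TPM in KO M0, and 281 TPM in each WT M0 library. In TPM the V1 and accessory sum was 2385 and 2460 in KO LPS, against 2317 in KO M0. It was 2490 and 2643 in WT LPS, against 2231 and 2242 in WT M0. In TPM, Atp6v1e1 thus rose by more than the V1 sum did in each genotype. What the pump and V1 sums would be without this gene under an equal median ratio was not tested. A rise of the other pump genes together is therefore not shown. In bulk RNA, fewer cells of a type and less RNA per cell cannot be told apart.

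**Figure D1:**
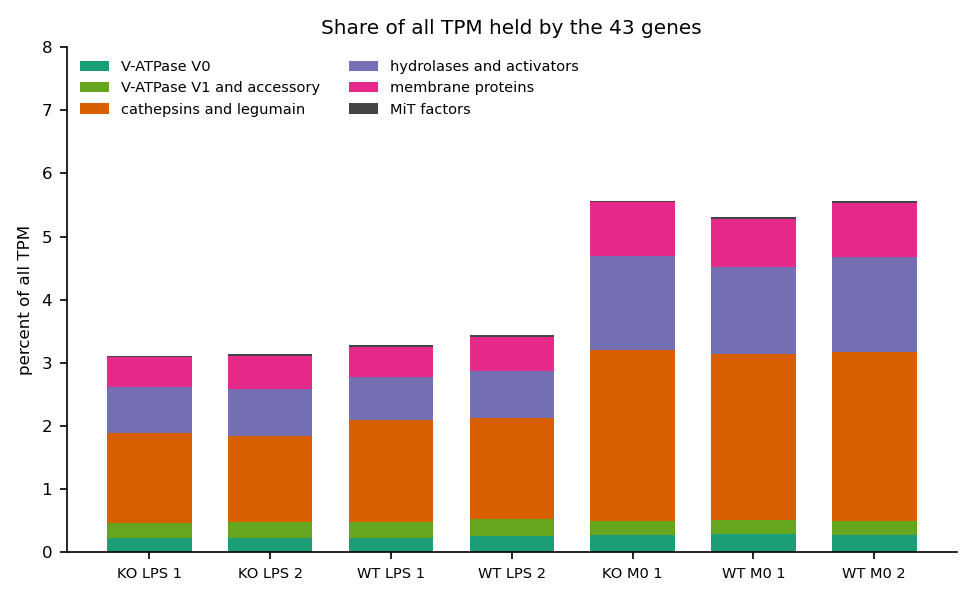
Stacked bars give the percent of all TPM held by the 43 genes in each of the 7 libraries (horizontal axis), split by role. The LPS libraries reach 3.11% to 3.44% and the untreated ones 5.31% to 5.57%, and the V-ATPase segments at the bottom are of similar height in all 7.

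Levels differed widely within the list. At the top in every library stood Psap, the precursor of the saposins that help hydrolases reach lipids, the aspartic protease Ctsd, and the cysteine proteases Ctss and Ctsb. These 4 genes held 41.2% to 43.4% of the summed TPM of the list in the LPS libraries and 52.7% to 53.2% in the untreated ones. At the other end stood Tfeb, lowest in both KO LPS libraries at 14.4 and 11.8 TPM, and the acid sphingomyelinase gene Smpd1, lowest in the other 5 libraries at 9.97 and 13.6 TPM in WT LPS, 21.7 TPM in KO M0, and 24.3 and 23.2 TPM in WT M0.

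**Figure D2:**
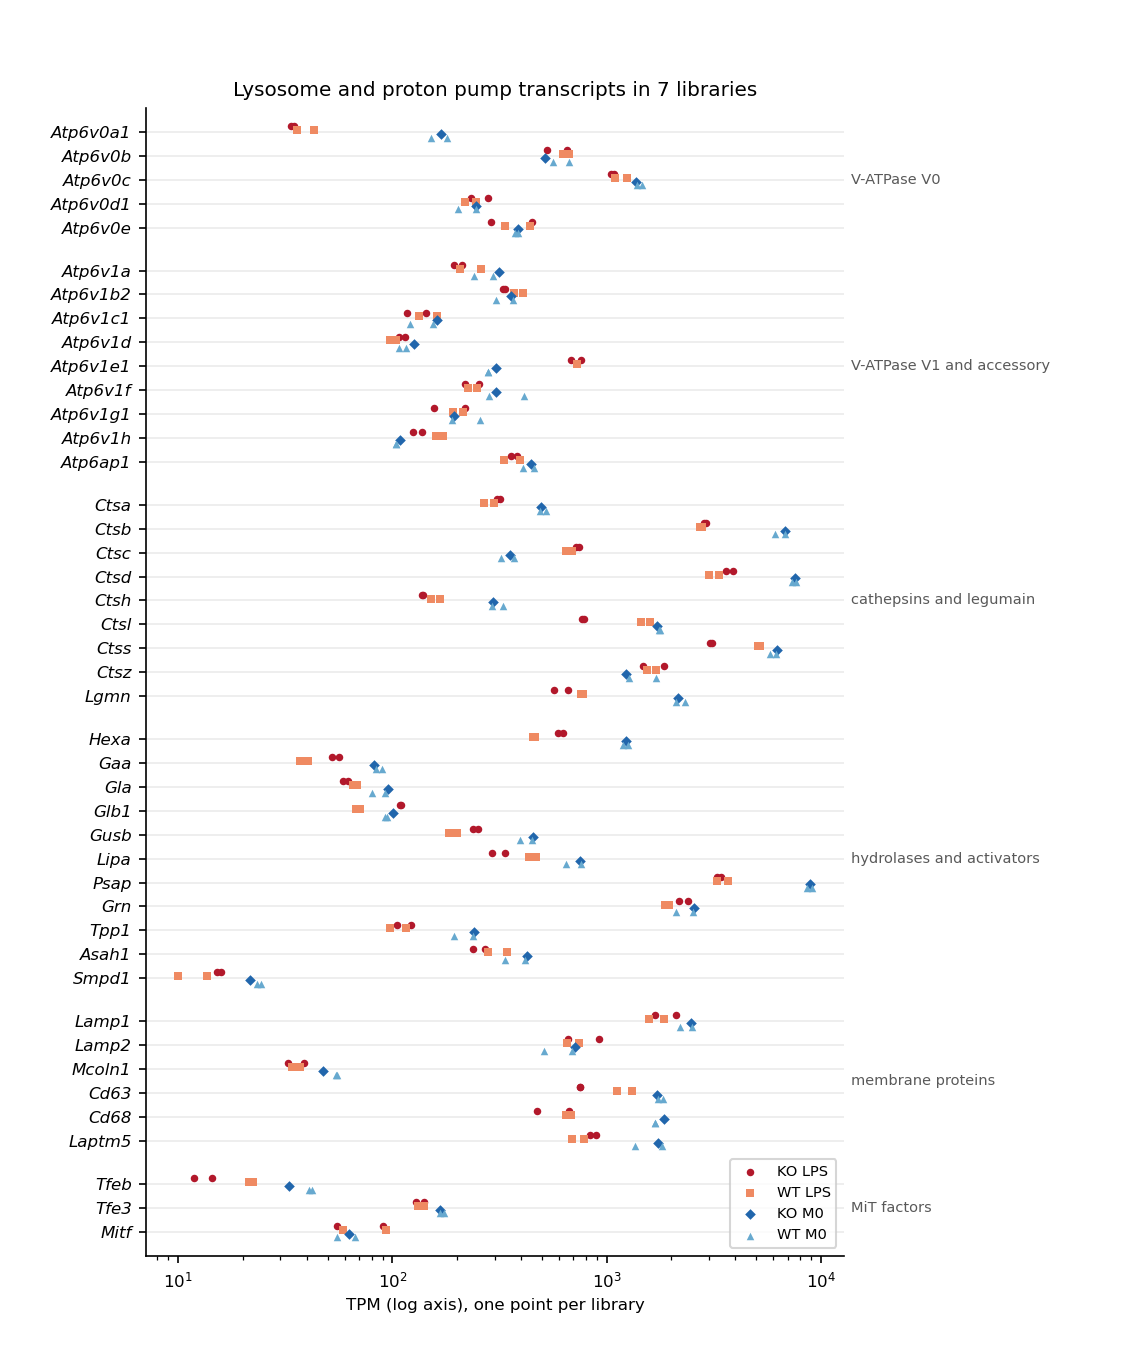
Each point is the TPM of a gene in a library on a log axis, with the 43 genes grouped by role down the page and the 4 groups marked by colour and shape. Most cathepsin and hydrolase points of the LPS libraries lie left of the untreated ones, Atp6v1e1 and Ctsc lie right of them, and most V-ATPase genes overlap.

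LPS lowered many of these genes in both genotypes. In KO LPS vs KO M0, 2 of the 43 rose and 21 fell (limma on log2(TPM + 1), Benjamini-Hochberg adjusted p under 0.05 over 11096 tested genes), against 13.8% of all tested genes higher and 24.3% lower. In WT LPS vs WT M0, 3 rose and 20 fell, against 15.0% of all tested genes higher and 29.6% lower. The listed genes that fell thus made up 48.8% and 46.5% of the list, more than the share of all genes in each comparison, and those that rose made up 4.7% and 7%. As the list was chosen with earlier results of these data known, its shares against all genes are descriptive, here and below. The median log2 change over the list was -0.46 in the knockout and -0.37 in the wild type, which is 0.22 and 0.16 below the median of all tested genes (-0.24 and -0.21). These 2 comparisons share no library, and 16 genes fell in both (37.2%) and 2 rose in both (4.7%), against 19.5% and 10.6% of all tested genes. Another 15 were called in neither, and none was called in opposite directions. The matching shares of all tested genes were not computed, so these last counts are not read as a trait of the list.

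TPM are shares of a total, and LPS moved the median of all genes by about 0.2 on the log2 scale. With libraries set to an equal median ratio, that median was -0.006 in KO LPS vs KO M0 and 0.008 in WT LPS vs WT M0. All tested genes were then called 2110 higher and 1849 lower in the knockout, in place of 1533 and 2700, and 2485 higher and 2288 lower in the wild type, in place of 1665 and 3284. The listed genes were called 3 higher and 16 lower in the knockout and 4 higher and 15 lower in the wild type, so more still fell than rose. Genes that lost their call in this way were Atp6v1a, Ctsa, Gaa, Gla and Asah1 in the knockout, and Atp6v1f, Glb1, Lipa, Mcoln1 and Cd63 in the wild type, with adjusted p between 0.0519 (Lipa) and 0.345 (Atp6v1f). With both WT LPS libraries left out, the knockout had 2 listed genes higher and 20 lower, and 1482 of all tested genes higher and 2620 lower.

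**Figure D3:**
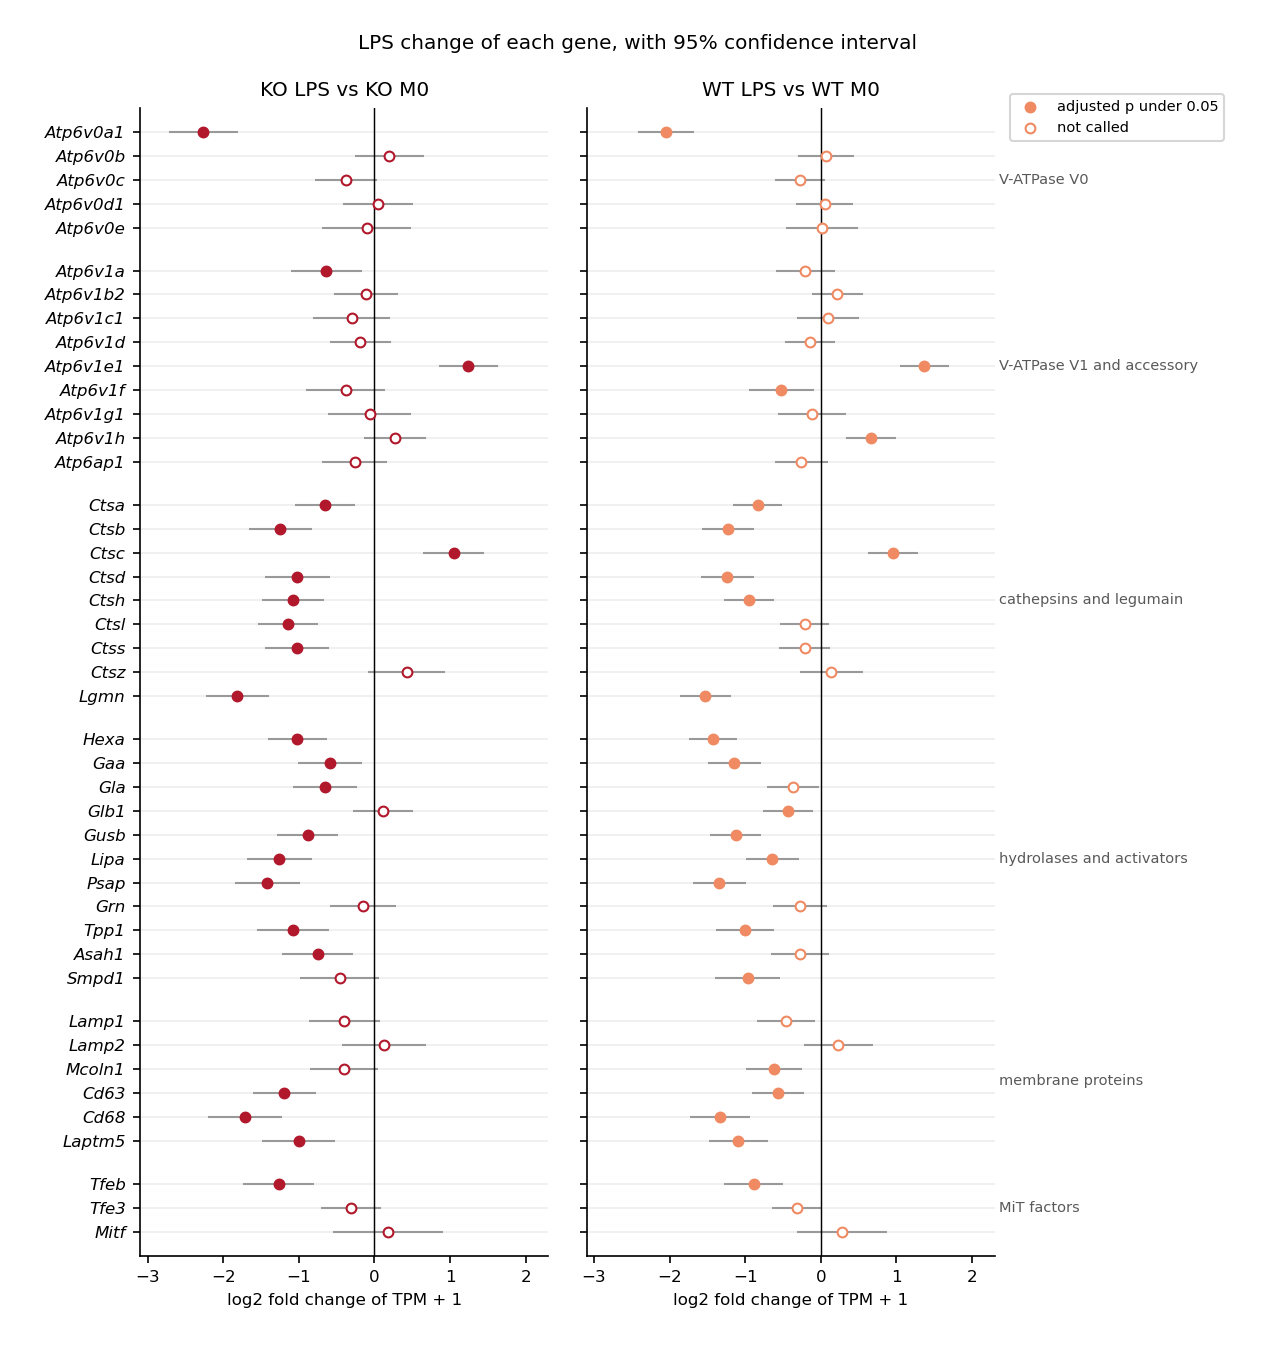
Points give the log2 fold change of TPM + 1 under LPS for each of the 43 genes, in knockout cells (left) and wild-type cells (right), with 95% confidence intervals. Filled points had an adjusted p under 0.05. Most filled cathepsin and hydrolase points lie left of 0, and only Atp6v1e1 and Ctsc are filled right of 0 in both panels.

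Few proton pump genes were called under LPS, and the largest changes were in opposite directions. Of 14, 1 rose (7.1%) and 2 fell (14.3%) in KO LPS vs KO M0, against 13.8% and 24.3% of all tested genes. In WT LPS vs WT M0, 2 rose and 2 fell (14.3% each), against 15.0% and 29.6%. Atp6v0a1, an isoform of the a subunit that anchors the pump and carries its proton path, was at 34.7 and 33.8 TPM in KO LPS, 35.8 and 42.98 TPM in WT LPS, 169 TPM in KO M0, and 152 and 180 TPM in WT M0. All 4 LPS libraries were below all 3 untreated ones, and the change was -2.27 ± 0.21 on the log2 scale in the knockout (SE, adjusted p = 1.47e-05) and -2.05 ± 0.17 in the wild type (adjusted p = 5.18e-06). It was the largest fall of the list in each genotype. Atp6v1e1, the E subunit of the stalk that joins the pump's sectors, went the other way, at 685 and 760 TPM in KO LPS, 729 and 728 TPM in WT LPS, 304 TPM in KO M0, and 281 TPM in each WT M0 library. It rose 2.38-fold in the knockout and 2.59-fold in the wild type on mean TPM (log2 changes of 1.24 ± 0.18 and 1.37 ± 0.14, SE, adjusted p = 0.000329 and 3.1e-05).

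The remaining pump genes changed less. Atp6v1h, a regulatory V1 subunit, was at 125 and 138 TPM in KO LPS, 159 and 173 TPM in WT LPS, 108 TPM in KO M0, and 104 TPM in each WT M0 library, and was called in the wild type alone (0.67 ± 0.15, SE, adjusted p = 0.00436). That the LPS changes of Atp6v1h differ between the genotypes was not shown (adjusted p = 0.629). Atp6v1a, which binds ATP in the catalytic sector, was at 193 and 212 TPM in KO LPS, 207 and 258 TPM in WT LPS, 315 TPM in KO M0, and 240 and 295 TPM in WT M0. It fell in the knockout (-0.64 ± 0.21, SE, adjusted p = 0.0375), with adjusted p of 0.103 without KO LPS replicate 1 and 0.0555 without KO LPS replicate 2. Atp6v1f fell in the wild type (-0.52 ± 0.19, SE, adjusted p = 0.0483), and this call rested on WT M0 replicate 1, the highest library at 410 TPM, since without it the change was -0.25 with an adjusted p of 0.299. It was also lost without WT LPS replicate 1 (adjusted p = 0.11) or replicate 2 (0.203). Atp6v0c, the proteolipid that forms the rotor ring, was at 1080 and 1046 TPM in KO LPS, 1100 and 1252 TPM in WT LPS, 1379 TPM in KO M0, and 1462 and 1385 TPM in WT M0, and did not pass the test in either genotype. A processed copy of it, Atp6v0c-ps2, reached 19.3 TPM, and how reads shared between copies were assigned is not given in the sources used here.

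Isoforms of the a and d subunits outside the list shifted the make-up of the pump transcripts. Tcirg1, the a3 isoform, was at 734 and 612 TPM in KO LPS, 725 and 574 TPM in WT LPS, 401 TPM in KO M0, and 457 and 397 TPM in WT M0. It rose in both genotypes (log2 changes of 0.74 ± 0.21 in the knockout and 0.60 ± 0.175 in the wild type, SE, adjusted p = 0.02 and 0.0179). The knockout call was lost without KO LPS replicate 1 (adjusted p = 0.0714), and the wild-type call without WT LPS replicate 1 (0.18) or WT M0 replicate 2 (0.104). Of the summed TPM of the 3 a subunit genes expressed here, Tcirg1 held 88.9% to 90.1% in KO LPS and 86.7% to 90.8% in WT LPS, against 66% in KO M0 and 64.9% to 71.7% in WT M0. Atp6v0a1 held 4.3% to 4.9% in KO LPS and 4.5% to 6.5% in WT LPS, against 27.8% in KO M0 and 23.9% to 29.4% in WT M0. The fourth a isoform gene, Atp6v0a4, was listed at 0 in all 7 libraries.

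Among the cathepsins and legumain, 7 of 9 fell (77.8%) and 1 rose (11.1%) in KO LPS vs KO M0, against 24.3% and 13.8% of all tested genes. In WT LPS vs WT M0, 5 of 9 fell (55.6%) and 1 rose (11.1%), against 29.6% and 15.0%. Legumain (Lgmn), an asparaginyl endopeptidase that activates other cathepsins, was at 660 and 568 TPM in KO LPS, 775 and 760 TPM in WT LPS, 2162 TPM in KO M0, and 2106 and 2328 TPM in WT M0. Its level under LPS was 0.284 times the untreated one in the knockout and 0.346 times in the wild type (log2 changes of -1.82 ± 0.19 and -1.53 ± 0.15, SE, adjusted p = 3.64e-05 and 2.26e-05). Ctsb was at 2864 and 2900 TPM in KO LPS, 2720 and 2785 TPM in WT LPS, 6840 TPM in KO M0, and 6087 and 6784 TPM in WT M0 (-1.25 ± 0.19 in the knockout and -1.22 ± 0.15 in the wild type, SE, adjusted p = 0.000513 and 0.000115). Both genes were below every untreated library in all 4 LPS libraries. Ctsd, an aspartic protease of the lysosome lumen, was at 3884 and 3631 TPM in KO LPS, 3018 and 3332 TPM in WT LPS, 7612 TPM in KO M0, and 7327 and 7633 TPM in WT M0 (-1.02 ± 0.19 and -1.24 ± 0.16, SE, adjusted p = 0.00205 and 0.000119). Ctsh, an aminopeptidase, and Ctsa, a carboxypeptidase that also protects other hydrolases, fell in both genotypes as well.

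Ctsc, which activates the serine proteases of immune cells, was the cathepsin that rose. It was at 723 and 740 TPM in KO LPS, 692 and 648 TPM in WT LPS, 353 TPM in KO M0, and 322 and 368 TPM in WT M0 (log2 changes of 1.05 ± 0.18 in the knockout and 0.96 ± 0.15 in the wild type, SE, adjusted p = 0.00121 and 0.000468). Ctsz, a carboxypeptidase, had overlapping libraries in the wild type and was not called in either genotype. Ctsb overlaps Fdft1 on the opposite strand, and Ctsa overlaps Pltp and Neurl2 on the opposite strand. Whether reads were counted by strand is not given in the sources used here, and Pltp differed between the groups, at 607 and 470 TPM in KO LPS, 1220 and 1046 TPM in WT LPS, 4262 TPM in KO M0, and 3432 and 4454 TPM in WT M0. Its part in the values of Ctsa was not tested.

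Of the hydrolases and activators, 8 of 11 fell in each genotype (72.7%) and none rose. Over all tested genes, 24.3% fell and 13.8% rose in the knockout, and 29.6% fell and 15.0% rose in the wild type. The median log2 change of these 11 hydrolases and activators was -0.75 in the knockout and -0.97 in the wild type. Psap was at 3411 and 3262 TPM in KO LPS, 3284 and 3698 TPM in WT LPS, 8919 TPM in KO M0, and 8602 and 9109 TPM in WT M0 (-1.42 ± 0.20 and -1.34 ± 0.16, SE, adjusted p = 0.000258 and 7.22e-05). Hexa, the alpha subunit of beta-hexosaminidase, was at 624 and 591 TPM in KO LPS, 455 and 463 TPM in WT LPS, 1234 TPM in KO M0, and 1199 and 1259 TPM in WT M0 (-1.02 ± 0.175 and -1.42 ± 0.14, SE, adjusted p = 0.00113 and 2.28e-05). The acid lipase gene Lipa, the beta-glucuronidase gene Gusb, the acid alpha-glucosidase gene Gaa and the tripeptidyl peptidase gene Tpp1 also fell in both genotypes. Leaving out KO LPS replicate 1 or 2 ended the knockout call of Gaa (adjusted p = 0.0569 and 0.113), as did leaving out WT LPS replicate 1 or 2 (0.0555 and 0.0557), and leaving out WT LPS replicate 1 ended the wild-type call of Lipa (0.0726).

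Smpd1 was called in the wild type alone, and Gla, an alpha-galactosidase, and Asah1, an acid ceramidase, in the knockout alone. The difference between the genotypes' LPS changes did not pass the test for any of the 3 (adjusted p = 0.646, 0.775 and 0.615). The knockout call of Gla was lost without KO LPS replicate 2 (adjusted p = 0.0661) and that of Asah1 without KO LPS replicate 1 (0.0586). Grn, which encodes progranulin, was at 2184 and 2397 TPM in KO LPS, 1947 and 1879 TPM in WT LPS, 2552 TPM in KO M0, and 2102 and 2533 TPM in WT M0, and was not called in either genotype.

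Of the 6 membrane proteins, 3 fell in KO LPS vs KO M0 (50%, against 24.3% of all tested genes) and 4 in WT LPS vs WT M0 (66.7%, against 29.6%). Cd68, a heavily glycosylated protein used as a macrophage marker, was at 666 and 474 TPM in KO LPS, 648 and 684 TPM in WT LPS, 1845 TPM in KO M0, and 1679 and 1682 TPM in WT M0 (-1.71 ± 0.22 and -1.33 ± 0.18, SE, adjusted p = 0.000165 and 0.000175). Laptm5, a transmembrane protein of immune cells, fell in both genotypes too (-1.001 ± 0.22 in the knockout and -1.09 ± 0.18 in the wild type, SE, adjusted p = 0.00454 and 0.000609). Lamp1 and Lamp2, the main glycoproteins of the lysosomal membrane, were not called. Lamp1 was at 1688 and 2111 TPM in KO LPS, 1576 and 1860 TPM in WT LPS, 2488 TPM in KO M0, and 2212 and 2500 TPM in WT M0. Lamp2 was at 663 and 922 TPM in KO LPS, 652 and 746 TPM in WT LPS, 714 TPM in KO M0, and 511 and 689 TPM in WT M0. Lamp1 was below the untreated libraries in all 4 LPS libraries, with an adjusted p of 0.0548 in the wild type and 0.168 in the knockout, and Lamp2 overlapped in both genotypes. Mcoln1, a calcium and iron channel of the lysosome, was at 38.5 and 32.6 TPM in KO LPS, 33.9 and 36.9 TPM in WT LPS, 47.4 TPM in KO M0, and 54.3 and 55.3 TPM in WT M0, and fell in the wild type (-0.62 ± 0.17, SE, adjusted p = 0.0114), with an adjusted p of 0.0815 without WT LPS replicate 1.

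The MiT factors differed among themselves. Tfeb, the most studied activator of lysosomal genes, was at 14.4 and 11.8 TPM in KO LPS, 21.4 and 22.3 TPM in WT LPS, 32.8 TPM in KO M0, and 40.7 and 42.0 TPM in WT M0, and fell in both genotypes (-1.27 ± 0.21 and -0.89 ± 0.17, SE, adjusted p = 0.000978 and 0.00202). Tfe3 was at 140 and 128 TPM in KO LPS, 140 and 132 TPM in WT LPS, 166 TPM in KO M0, and 166 and 174 TPM in WT M0. Mitf was at 55.4 and 90.8 TPM in KO LPS, 58.6 and 93.2 TPM in WT LPS, 62.5 TPM in KO M0, and 55.1 and 67 TPM in WT M0, and its libraries overlapped. Neither was called. Tfec, the fourth family member and not on the list, is found mainly in macrophages and rose to 71.8 and 58.1 TPM in KO LPS and 64.3 and 74.7 TPM in WT LPS, against 37.9 TPM in KO M0 and 36.6 and 33.5 TPM in WT M0 (0.755 ± 0.21 in the knockout and 0.96 ± 0.17 in the wild type, SE, adjusted p = 0.0181 and 0.00124). Without KO LPS replicate 1 its knockout call was lost (adjusted p = 0.0828). Of the family's summed TPM, Tfeb held 4.1% to 5.1% in KO LPS and 6.9% to 7.5% in WT LPS, against 11.0% in KO M0 and 13.3% to 13.6% in WT M0.

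Genes with and without an E-box both fell under LPS. Of the 13 genes with an E-box in a window, 7 fell and none rose in KO LPS vs KO M0, with a median log2 change of -0.58, and of the 23 with a window and no E-box, 11 fell and 2 rose, with a median of -0.46. In WT LPS vs WT M0, 6 of the 13 fell with a median of -0.43, and 12 of the 23 fell and 2 rose with a median of -0.52. Over all tested genes, 24.3% fell and 13.8% rose in KO LPS vs KO M0, and 29.6% fell and 15.0% rose in WT LPS vs WT M0. Of the 6 genes with more than 1 E-box in the window, Ctsa and Ctsd fell in both genotypes, Gla in the knockout and Mcoln1 in the wild type, and Lamp1 and Atp6v0b were not called.

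Under LPS, 5 of the 43 genes differed between knockout and wild-type cells. Ctsl, Ctss, Cd63 and Tfeb were lower in KO LPS and Glb1 was higher, which is 9.3% of the list lower and 2.3% higher, against 2.58% of all tested genes lower and 4.59% higher. The share that was lower was above that of all genes, and the share that was higher was below it. The median log2 difference over the list was -0.02, against 0.03 for all genes. Before LPS, 0 of 43 were called in KO M0 vs WT M0 by limma, against 0% of all tested genes higher and 0.00901% lower, which is Tgm2 alone. At an unadjusted p under 0.05, 154 of the 11096 genes and 0 of the 43 passed in that comparison, which has a single knockout library.

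**Figure D4:**
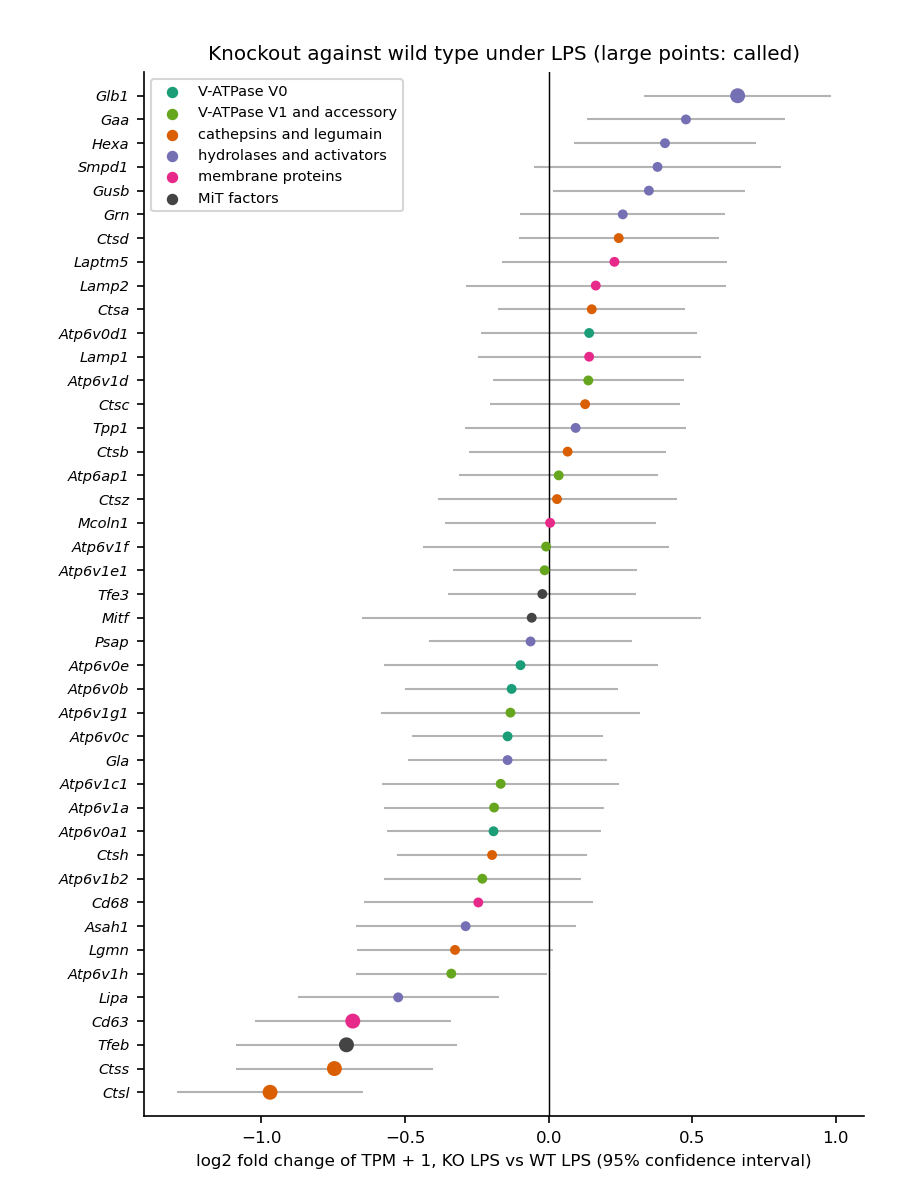
Points give the log2 fold change of TPM + 1 in KO LPS vs WT LPS for each of the 43 genes, ordered from highest to lowest and coloured by role, with 95% confidence intervals. Large points had an adjusted p under 0.05: Glb1 at the top, and Cd63, Tfeb, Ctss and Ctsl at the bottom.

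Ctsl differed most. Cathepsin L is a cysteine endopeptidase that degrades proteins and processes the invariant chain of MHC class II in some cell types, and its gene lies at chr13:64361890-64370772 on the minus strand of GRCm38.p6. It was at 769 and 783 TPM in KO LPS, 1591 and 1452 TPM in WT LPS, 1718 TPM in KO M0, and 1771 and 1750 TPM in WT M0. The KO LPS libraries were below all others, and the WT LPS libraries were slightly below the untreated ones. The level in KO LPS was 0.51 times that in WT LPS (log2 difference -0.97 ± 0.15, SE, adjusted p = 0.00277), and it stayed called under all 15 alternatives tried, with adjusted p up to 0.0397. LPS lowered Ctsl in the knockout (-1.15 ± 0.18, SE, adjusted p = 0.000619), and it was not called in the wild type (adjusted p = 0.266). The difference between these LPS changes was -0.94 ± 0.23 (SE), with an adjusted p of 0.0971, so a genotype-dependent response did not pass the test.

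Ctss, the cysteine protease that processes the invariant chain in macrophages and B cells, followed the same order of groups. It was at 3033 and 3115 TPM in KO LPS, 5219 and 5093 TPM in WT LPS, 6261 TPM in KO M0, and 6180 and 5777 TPM in WT M0. The gene (chr3:95526786-95556405, plus strand) was lower in KO LPS than in WT LPS by -0.75 ± 0.15 on the log2 scale (SE, adjusted p = 0.0156). Cd63, a tetraspanin of late endosomes and lysosomes (chr10:128896231-128912822, plus strand), was at 755 and 753 TPM in KO LPS, 1113 and 1316 TPM in WT LPS, 1724 TPM in KO M0, and 1840 and 1744 TPM in WT M0. Its difference was -0.68 ± 0.15 (SE, adjusted p = 0.0243). Tfeb, whose values are given above (chr17:47737037-47792416, plus strand), differed by -0.70 ± 0.17 (SE, adjusted p = 0.0369). In all 3 genes the KO LPS libraries were below the WT LPS ones, which were below the untreated ones. Tfeb was also lower before LPS, at 32.8 TPM in KO M0 against 40.7 and 42.0 TPM in WT M0 (log2 difference -0.32, not called). The difference between the genotypes' LPS changes did not pass the test for any of the 3. It was -0.81 for Ctss, -0.63 for Cd63 and -0.38 for Tfeb (limma interaction, adjusted p = 0.192, 0.361 and 0.721).

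Glb1 had another order. It encodes the lysosomal beta-galactosidase (chr9:114401078-114474379, plus strand) and was at 110 and 108 TPM in KO LPS, 70.2 and 67.4 TPM in WT LPS, 101 TPM in KO M0, and 92.1 and 94.4 TPM in WT M0. The WT LPS libraries were below all others and the KO LPS libraries above all others, a ratio of 1.58 (log2 difference 0.66 ± 0.15, SE, adjusted p = 0.0235). In the wild type LPS lowered Glb1 (-0.43 ± 0.15, SE, adjusted p = 0.0349), a call lost without any of the 4 libraries compared (adjusted p between 0.0723 and 0.159). In the knockout it was not called (adjusted p = 0.648), and the difference between the LPS changes was 0.55 ± 0.23 (SE, adjusted p = 0.428). Tmppe overlaps Glb1 on the same strand and stood between 13.6 and 18.1 TPM in the 7 libraries.

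**Figure D5:**
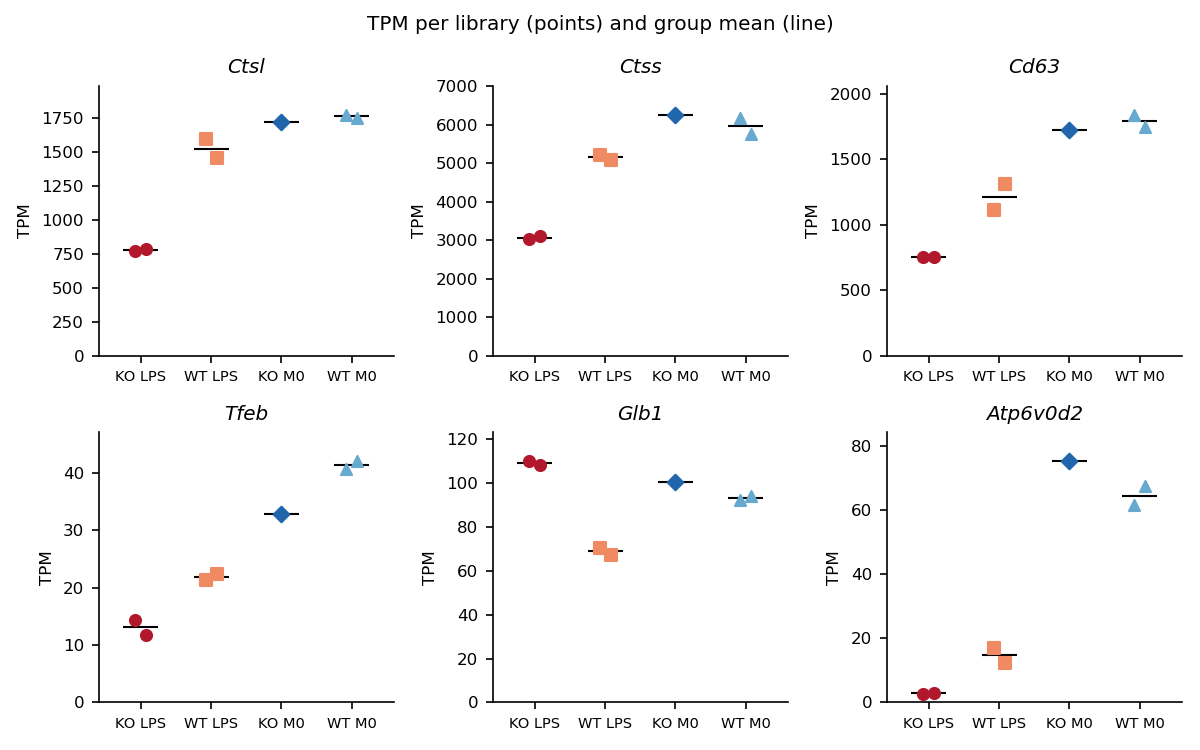
Points give the TPM of each library and lines the group means for the 5 listed genes called between KO LPS and WT LPS, and for Atp6v0d2, with the groups in the order KO LPS, WT LPS, KO M0 and WT M0. Ctsl, Ctss, Cd63, Tfeb and Atp6v0d2 are lowest in KO LPS, and Glb1 is lowest in WT LPS.

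Of these 5 calls, Ctsl alone held when a library was left out from the LPS groups. Without KO LPS replicate 1, then KO LPS replicate 2, then the first and last of the WT LPS libraries, the adjusted p was 0.0522, 0.0518, 0.107 and 0.123 for Ctss, 0.0714, 0.0888, 0.0622 and 0.256 for Cd63, 0.0602, 0.239, 0.11 and 0.196 for Tfeb, and 0.0937, 0.0992, 0.0989 and 0.177 for Glb1. Tfeb was also lost without WT M0 replicate 1 or 2 (0.0654 and 0.0657). The log2 differences kept their sign throughout.

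The other 38 genes were not called between KO LPS and WT LPS. None of the 14 proton pump genes was called by limma, and 1 of them, Atp6v1h, had an unadjusted p under 0.05. Their log2 differences lay between -0.34 and 0.14. Hexa, Gaa and Gusb were higher in both KO LPS libraries than in either WT LPS library, and Lipa was lower, each with an unadjusted p under 0.05 (reached by 23.3% of the list and 20% of all tested genes) and adjusted p of 0.138, 0.106, 0.23 and 0.0807. Lipa was at 293 and 335 TPM in KO LPS, 433 and 470 TPM in WT LPS, 752 TPM in KO M0, and 650 and 762 TPM in WT M0. By role, the hydrolases and activators had a median difference of 0.26 with 1 of 11 called higher (9.1%, against 4.59% of all tested genes). The proton pump genes had a median of -0.13. For the difference between the genotypes' LPS changes, limma called 0 of 43, against 0.847% of all tested genes higher and 0.523% lower, and 6 (14%) had an unadjusted p under 0.05, close to the 10.5% of all tested genes. These were Ctsl, Ctss, Lipa and Cd63, with a lower change in the knockout, and Gaa and Glb1, with a higher one.

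A further set of 124 genes of the lysosome and its supply and control, of which 112 were tested, included genes that moved each way. It was made up of 16 pump genes, 10 cathepsins and cystatins, 32 hydrolases, and 24 membrane and transport genes. The rest were 18 genes for delivery to lysosomes and 24 for MiT control and autophagy. In KO LPS vs KO M0, 10 rose (8.9%) and 42 fell (37.5%), against 13.8% and 24.3% of all tested genes, and in WT LPS vs WT M0, 15 rose (13.4%) and 41 fell (36.6%), against 15.0% and 29.6%. The set's summed level under an equal median ratio overlapped between LPS and untreated libraries, at 51591 and 53016 in KO LPS and 55660 and 54129 in WT LPS, against 54349 in KO M0 and 61939 and 51778 in WT M0. The lysozyme gene Lyz2, also used as a macrophage marker, held most of the set's TPM in every library. It was at 30228 and 31837 TPM in KO LPS and 28492 and 31776 TPM in WT LPS. Untreated, it was at 38582 TPM in KO M0 and 42151 and 36267 TPM in WT M0. The whole set summed to between 48998 and 65138 TPM. What the sum would be without Lyz2 was not tested. The falls included Sgsh, a sulfatase of heparan sulfate breakdown, at 3.32 and 2.65 TPM in KO LPS and 3.19 and 3.77 TPM in WT LPS, against 33.3 TPM in KO M0 and 29.7 and 38.9 TPM in WT M0. Tpcn1, a cation channel of endosomes and lysosomes, fell to 3.89 and 3.76 TPM in KO LPS and 1.99 and 3.92 TPM in WT LPS, against 63.4 TPM in KO M0 and 50.2 and 73.8 TPM in WT M0. The rises included Clcn7, the chloride-proton exchanger of lysosomes, at 391 and 383 TPM in KO LPS and 345 and 311 TPM in WT LPS, against 106 TPM in KO M0 and 99.3 and 100.1 TPM in WT M0. The mannose 6-phosphate receptor gene M6pr rose and the other such receptor gene, Igf2r, fell in both genotypes. In KO M0 vs WT M0 limma called none of the 112, and none had an unadjusted p under 0.05.

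Other large changes lay in inhibitors, adaptors and lipid enzymes. Cst7, a cystatin that inhibits cathepsins, was at 34.0 and 17.3 TPM in KO LPS, 20.3 and 21.3 TPM in WT LPS, 1.73 TPM in KO M0, and 2.09 and 1.38 TPM in WT M0, and rose in both genotypes (adjusted p = 5.81e-05 in the knockout and 1.62e-05 in the wild type). Ap1b1, a subunit of an adaptor that sorts cargo at the trans-Golgi network, was at 23.3 and 26.9 TPM in KO LPS, 17.5 and 21.5 TPM in WT LPS, 187 TPM in KO M0, and 156 and 213 TPM in WT M0, and fell in both (adjusted p = 8.95e-06 and 8.32e-07). Ap3b1, of the adaptor that serves lysosome-related organelles, rose in both genotypes (adjusted p = 0.00125 and 0.000601). Pla2g15, a lysosomal phospholipase, fell to 14.7 and 11.0 TPM in KO LPS and 14.6 and 19.3 TPM in WT LPS, against 88.6 TPM in KO M0 and 77.1 and 84.8 TPM in WT M0. Npc1, which exports cholesterol from lysosomes, was at 73.5 and 70.6 TPM in KO LPS, 75.0 and 84.6 TPM in WT LPS, 154 TPM in KO M0, and 130 and 160 TPM in WT M0, with all LPS libraries below all untreated ones. Rogdi, Ctsf, Gnptg and Rragd fell in both genotypes as well. Sqstm1, the autophagy receptor p62, was at 1777 and 1459 TPM in KO LPS, 2039 and 1723 TPM in WT LPS, 1962 TPM in KO M0, and 2298 and 1985 TPM in WT M0, and was not called.

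Between KO LPS and WT LPS, 1 of these 112 genes was higher (0.9%) and 7 were lower (6.2%), against 4.59% and 2.58% of all tested genes. Atp6v0d2, an isoform of the d subunit that is abundant in osteoclasts, was at 2.57 and 3.00 TPM in KO LPS, 17.0 and 12.2 TPM in WT LPS, 75.1 TPM in KO M0, and 61.5 and 67.3 TPM in WT M0. It was lower in KO LPS by -2.03 ± 0.20 (SE, adjusted p = 0.000218), called under all 15 alternatives, and fell under LPS in both genotypes (-4.33 in the knockout and -2.08 in the wild type). The difference between these falls was -2.25 ± 0.32 (SE, adjusted p = 0.0104). This was the single call of that comparison among these 112 genes (0.9%), against 0.847% of all tested genes higher and 0.523% lower. It was lost without WT M0 replicate 1 (adjusted p = 0.107) or WT M0 replicate 2 (0.0523). Atp6v0d2 held 1.1% of the TPM of the d subunit genes in each KO LPS library and 7.3% and 4.7% in WT LPS, against 23.3% in KO M0 and 23.3% and 21.5% in WT M0, the rest being Atp6v0d1.

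The other genes lower in KO LPS than in WT LPS were Ctsk, Acp5, Pla2g7, Tpcn2, Slc11a1 and Gabarapl1. Acp5, the tartrate-resistant acid phosphatase, was at 70.6 and 65.0 TPM in KO LPS, 134 and 156 TPM in WT LPS, 29.9 TPM in KO M0, and 33.2 and 24.9 TPM in WT M0 (-1.08 ± 0.18, SE, adjusted p = 0.00529), with an adjusted p of 0.0587 without WT LPS replicate 2. Pla2g7, which hydrolyses platelet-activating factor, was at 1169 and 1376 TPM in KO LPS, 1936 and 2123 TPM in WT LPS, 534 TPM in KO M0, and 490 and 584 TPM in WT M0. Both genes rose under LPS in each genotype and stood lower in KO LPS than in WT LPS. Tpcn2, a second cation channel of this family, was at 27.2 and 25.8 TPM in KO LPS, 40.6 and 40.7 TPM in WT LPS, 132 TPM in KO M0, and 134 and 133 TPM in WT M0. Ctsk, a collagen-degrading cathepsin, was at 12.4 and 9.53 TPM in KO LPS, 26.6 and 18.0 TPM in WT LPS, 24.7 TPM in KO M0, and 28.3 and 20.1 TPM in WT M0. Gabarapl1, of the family that builds autophagosomes, was at 59.2 and 48.7 TPM in KO LPS, 82.7 and 97.2 TPM in WT LPS, 97.4 TPM in KO M0, and 121 and 99.3 TPM in WT M0. For these 3 genes the KO LPS libraries were the lowest of all. Slc11a1, the metal transporter Nramp1, was at 460 TPM in each KO LPS library, 728 and 727 TPM in WT LPS, 600 TPM in KO M0, and 528 and 630 TPM in WT M0 (-0.66, adjusted p = 0.0266). Arsb, an arylsulfatase, was higher, at 9.37 and 9.85 TPM in KO LPS and 3.76 and 4.65 TPM in WT LPS, against 11.8 TPM in KO M0 and 8.95 and 12.4 TPM in WT M0 (1.03, adjusted p = 0.0162). Every one of these 7 calls was lost when some library of the LPS groups was left out, with the largest adjusted p between 0.0587 (Acp5) and 0.258 (Gabarapl1).

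Some markers of other cells moved with these results. Acp5 and Ctsk are also osteoclast markers, and the summed TPM of the 4 osteoclast markers was 84.9 to 90.2 in KO LPS, 161 to 175 in WT LPS, 54.7 in KO M0, and 45.2 to 61.7 in WT M0. Of the other markers on that list, Oscar was at most 0.233 TPM, and Calcr was at 7.22 and 10.2 TPM in KO LPS, 0.616 and 1.07 TPM in WT LPS, and 0 in the untreated libraries. The 6 neutrophil markers in the tables summed to 106 to 161 TPM in KO LPS, 208 to 333 TPM in WT LPS, 5.01 TPM in KO M0, and 7.89 to 8.49 TPM in WT M0. Most of that was S100a8, which LPS-treated macrophages also make, and the granule genes Elane, Mpo and Ngp were at most 0.208 TPM in any library. Camp, another granule gene, was at 9.16 and 9.14 TPM in KO LPS, 12.0 and 11.0 TPM in WT LPS, 0 in KO M0, and 0.906 and 0.378 TPM in WT M0. The 5 stromal markers summed to 22.8 to 29.8 TPM in KO LPS, 18.3 to 21.3 TPM in WT LPS, 21.2 TPM in KO M0, and 28.8 to 38.3 TPM in WT M0. Within it Col1a1 was at 1.18 and 1.56 TPM in KO LPS, 0 in both WT LPS libraries, 10.4 TPM in KO M0, and 13.2 and 18.6 TPM in WT M0. Pdgfrb went the other way and held most of the sum in the LPS libraries, at 27.7 and 19.9 TPM in KO LPS, 18.2 and 21.2 TPM in WT LPS, 1.93 TPM in KO M0, and 1.81 and 2.29 TPM in WT M0. The part of these markers in the results was not tested.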

How the data were processed

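Messenger RNA of 7 libraries was measured by RNA sequencing by the submitters. The authors deposited TPM per gene (23337 genes), scaled to the same total in every library. The submitters' processing notes name mm10, and they name no aligner, quantifier or annotation in what was used here. Depth is unknown, and no counting interval is given. Groups come from sample titles.

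Of these, 11096 averaged 1 TPM or more and were tested on log2(TPM + 1), so fold changes of low genes are understated. Means of the 4 groups were fitted with limma 3.58.1 (R 4.3.3), with variances moderated along a trend (3 residual degrees of freedom, prior 7.3), and adjusted by Benjamini-Hochberg at 0.05 in each of 5 comparisons. KO M0 has 1 library, whose spread is taken to equal that of the rest. The steps were tested on simulated data. An interaction is the KO LPS change minus the WT LPS change.

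The 43 genes and all lists were chosen with earlier results of these data known. Named with values per library were genes called in KO LPS vs WT LPS or the interaction, the largest LPS changes of each list, and set genes, with further genes chosen after their values were seen (Grn, Lipa, Igf2r and overlapping genes among them). A gene of the set is not reported here. Older symbols in the tables were matched for 6 genes. Coordinates and promoters are from RefSeq's GRCm38.p6 table, the assembly behind mm10. Alternatives were median-ratio scaling, quantile normalization, a pseudocount of 0.1, no filter or a minimum of 5 TPM, an adjusted p of 0.01, the compared groups alone, no WT LPS libraries, a replicate block and each library left out. Figures were drawn with matplotlib 3.10.9.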

Additional observations from a re-analysis of the deposited data

Results flagged for a closer look

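The LPS change of Atp6v0d2, an isoform of the pump's d subunit, differed between the genotypes. Its fall under LPS was deeper in the knockout than in the wild type by -2.25 on the log2 scale (limma interaction, adjusted p = 0.0104), with 2.57 and 3.00 TPM in KO LPS and 17.0 and 12.2 TPM in WT LPS, against 75.1 TPM in KO M0 and 61.5 and 67.3 TPM in WT M0. With a pseudocount of 0.1 in place of 1 the value was -2.56. Over 12 alternatives the value lay between -2.56 and -2.02 and the adjusted p between 0.00714 and 0.116. The WT LPS libraries are those that expressed Xist against their male label, along with Y-linked genes, and the interaction has no value without them.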

How the results depend on the processing

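Of 1613 alternative values for 112 gene results, 1453 kept direction and side of the threshold, 159 kept direction and lost the threshold, and 1 reversed. That was Sqstm1 in WT LPS vs WT M0, which was not called, at 0.051 with median-ratio scaling.

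In KO LPS vs WT LPS, 795 genes were called, 307 with no filter, 362 at an adjusted p of 0.01, and 399 to 800 with a library left out. Listed genes called there numbered 5, with 2 under no filter, 1 at an adjusted p of 0.01, and 1 to 5 with a library left out (1 whichever LPS library was left out). In KO M0 vs WT M0, 1 gene was called, 2 with a pseudocount of 0.1, 20 with no filter, 8 with the compared groups alone, and 1 to 3 with a library left out. In KO LPS vs KO M0, 4233 were called and 2681 at an adjusted p of 0.01. For the interaction, 152 were called, 92 with a pseudocount of 0.1, 10 with no filter, 28 at an adjusted p of 0.01, and 6 (without WT M0 replicate 1) to 146 with a library left out. The cause was not tested. With median-ratio scaling, KO LPS vs WT LPS had 433 genes higher and 312 lower, and with quantile normalization 390 and 335, in place of 509 and 286. Quantile normalization gave 1837 higher and 2153 lower in KO LPS vs KO M0, and 2251 and 2539 in WT LPS vs WT M0.

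Summed TPM of the 43 genes under median-ratio scaling averaged 32868 in KO LPS, 36158 in WT LPS, 49101 in KO M0 and 49559 in WT M0, in place of 31226, 33571, 55665 and 54318. The order of LPS below untreated was kept.

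The labels do not say whether same-numbered libraries are paired. Their deviations correlated at 0.181 (KO LPS and WT LPS), 0.298 (KO LPS and WT M0) and 0.08 (WT LPS and WT M0). With n = 2 in each of these groups, such values cannot decide it. With a replicate block, 1109 genes and 6 listed genes were called in KO LPS vs WT LPS, in place of 795 and 5. In WT LPS vs WT M0 they were 5664 and 24, in place of 4949 and 23. KO M0 carries no number, so the block could not be fitted for its comparisons. The interaction was not fitted without KO M0.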
